A study of Homo sapiens with 33 samples.

Results

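The regions described here were bound strongly by wild-type MITF (WT) and were missing from the strongest peaks of the MITF variants K243A and G244E. Binding was mapped with CUT&Tag: an anti-HA antibody recruits a transposase, which cuts and tags the DNA next to the HA-tagged protein. For each library, the 10000 peaks of highest −log10 q (the significance of the peak summit as the authors' peak caller gave it) on chromosomes 1 to 22 and X formed its top list. The top lists of WT, K243A and G244E were merged into 15177 regions, of which 7050 were overlapped by all 3 WT lists. Of these, 1009 regions were overlapped by at most 1 of the 6 lists of K243A and G244E and are the members, which were thus chosen by the measured peak strengths of WT, K243A and G244E: 551 were in none of the 6 and 458 in 1. For contrast, 3491 regions were in all 9 lists (called kept regions here) and 2550 in 2 to 5 of the variant lists.

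MITF is a transcription factor that directs melanocyte development. It belongs to the basic helix-loop-helix leucine zipper family, binds DNA as a dimer, and recognises E-box sequences, among them the M-box core TCATGTG of pigmentation gene promoters and the core TCACGTG, which is shared with its relatives TFEB and TFE3 at lysosomal genes. Its known targets include the enzymes and structural proteins of the melanosome, lysosomal genes and cell cycle genes.

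All libraries came from the human melanoma line UACC-257, and all carried the same labels, namely MITF knockdown as genotype and doxycycline as treatment, so that the groups differ in the expressed protein. The groups were WT, a control labelled Empty, and 9 variants, of which A264C, E260A, G244E, K243A, N278D, Q261A and Y253A are named as amino acid substitutions, while the labels do not explain the names rep217A and rep263A. Each group had 3 libraries, but the lists of replicates 2 and 3 were identical in rep217A and in rep263A and were counted once, which left 31 libraries of 33 and n = 2 in these groups. Nothing in the labels tells separate cultures from repeat libraries, or whether a line was 1 clone, and p-values here cover just the variation among the libraries at hand. Relative depth, taken from the background pileup of each list, was 1.08 to 1.20 in WT, 0.132 to 0.244 in K243A and 0.108 to 0.151 in G244E. WT was thus 6.47 times as deep as K243A and 8.93 times as deep as G244E. The part of this depth gap in the choice of the members was not tested, and values at a common depth are given beside those at own depth. Of 6 melanocyte markers, 4 (DCT, PMEL, MLANA and TYR) had a region in all 3 WT top lists, against none of 8 keratinocyte or 8 lymphoid markers and 1 of 6 fibroblast markers.

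A minority of members lay on promoters, and the promoters that they covered were rich in E-boxes. The sequences below show the 250 bases before the transcription start, written 5′ to 3′ on the strand of the gene, from RefSeq (GRCh38.p14), with E-box cores (CATGTG or CACGTG on either strand, with a flanking T or A where it completes the M-box or lysosomal core) in capitals. TRPM1, SLC24A5 and TYR are pigmentation genes, CTSA and SPNS1 encode lysosomal proteins, FNIP2 had the strongest member on a promoter, and ZNF322 had the largest fall in several variants. DCT is shown last because its promoter region was kept in all 9 lists.
TRPM1: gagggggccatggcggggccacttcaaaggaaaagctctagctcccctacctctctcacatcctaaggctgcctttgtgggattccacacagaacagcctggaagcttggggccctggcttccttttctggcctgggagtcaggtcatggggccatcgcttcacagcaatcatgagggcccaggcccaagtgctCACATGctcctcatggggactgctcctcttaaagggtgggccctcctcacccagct
SLC24A5: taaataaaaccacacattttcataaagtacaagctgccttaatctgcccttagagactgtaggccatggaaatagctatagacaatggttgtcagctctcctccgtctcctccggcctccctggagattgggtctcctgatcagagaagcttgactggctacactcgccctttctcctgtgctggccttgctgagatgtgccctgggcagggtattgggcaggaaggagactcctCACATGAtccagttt
TYR: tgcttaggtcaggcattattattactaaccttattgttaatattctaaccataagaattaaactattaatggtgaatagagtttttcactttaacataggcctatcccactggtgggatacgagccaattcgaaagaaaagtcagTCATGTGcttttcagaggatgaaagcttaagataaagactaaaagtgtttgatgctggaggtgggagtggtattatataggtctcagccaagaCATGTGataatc
FNIP2: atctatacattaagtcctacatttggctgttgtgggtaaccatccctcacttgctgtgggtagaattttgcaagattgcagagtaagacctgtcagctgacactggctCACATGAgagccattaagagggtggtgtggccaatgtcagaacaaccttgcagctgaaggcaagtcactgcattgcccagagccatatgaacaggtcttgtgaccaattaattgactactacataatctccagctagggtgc
CTSA: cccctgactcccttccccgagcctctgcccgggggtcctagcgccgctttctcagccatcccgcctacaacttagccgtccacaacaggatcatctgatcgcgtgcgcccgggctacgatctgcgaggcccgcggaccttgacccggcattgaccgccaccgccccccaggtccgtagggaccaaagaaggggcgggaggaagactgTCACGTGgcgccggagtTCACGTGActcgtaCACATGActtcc
SPNS1: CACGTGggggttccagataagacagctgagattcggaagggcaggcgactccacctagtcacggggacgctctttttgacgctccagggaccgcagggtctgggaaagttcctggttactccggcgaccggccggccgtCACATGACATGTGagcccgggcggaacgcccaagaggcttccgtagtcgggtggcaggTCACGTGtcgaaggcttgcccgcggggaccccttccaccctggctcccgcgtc
ZNF322: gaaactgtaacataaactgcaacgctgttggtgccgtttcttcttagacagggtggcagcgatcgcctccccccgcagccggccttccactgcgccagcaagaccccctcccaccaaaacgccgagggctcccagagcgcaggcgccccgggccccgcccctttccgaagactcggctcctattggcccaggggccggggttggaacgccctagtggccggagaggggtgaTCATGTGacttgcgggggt
DCT: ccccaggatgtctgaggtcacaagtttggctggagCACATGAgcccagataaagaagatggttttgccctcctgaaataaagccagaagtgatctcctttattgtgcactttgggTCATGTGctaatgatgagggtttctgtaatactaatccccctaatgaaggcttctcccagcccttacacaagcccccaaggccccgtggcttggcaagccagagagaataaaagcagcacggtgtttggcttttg
The windows lie at chr15:31101726-31101975 on the minus strand (TRPM1), chr15:48120740-48120989 on the plus strand (SLC24A5), chr11:89177625-89177874 on the plus strand (TYR), chr4:158805589-158805838 on the plus strand (FNIP2, at 1 of its starts), chr20:45891085-45891334 on the plus strand (CTSA), chr16:28974528-28974777 on the plus strand (SPNS1), chr6:26659747-26659996 on the minus strand (ZNF322) and chr13:94479683-94479932 on the minus strand (DCT). TYR held the M-box core TCATGTG with its first base at -105 from the start and a CATGTG at -12. CTSA held 3 cores within its last 43 bases, at -43, -26 and -12. SPNS1 held a run of overlapping cores at -111 and TCACGTG at -53. DCT, a kept region, held CACATGA at -215 and TCATGTG at -135, so cores of this kind were not limited to members.

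In K243A and G244E the members were weak rather than unlisted. These values chose the members and are given as a description. Over the complete lists, 99.6% ± 0.303 of members were overlapped by a K243A peak and 93.6% ± 1.71 by a G244E peak (SD, n = 3 each), and 817 of the 1009 were listed in every library of all 9 variants. Their median place in the list was 6337 ± 399.9 in WT, 16252 ± 307 in K243A and 26208 ± 1406 in G244E. The median summit pileup (tags over the summit) was 154 ± 7.21 in WT, 14.7 ± 3.79 in K243A and 7 ± 1 in G244E, where depth was also lower. As a percentage of the median pileup at kept regions of the same library, it was 59.7% ± 1.57 in WT, 29.0% ± 1.80 in K243A and 19.1% ± 0.590 in G244E. The ratio was thus lower in every K243A and G244E mean than in WT. Of the 458 members in 1 variant list, 349 were in a K243A list and 109 in a G244E list. With every library thinned to the common depth of 0.108, the members were in 71.4% ± 2.12 of WT top lists, 17.3% ± 3.05 of K243A lists and 5.73% ± 2.19 of G244E lists (n = 3 each). Applied to thinned libraries, the rule gave 485 regions, which overlapped 323 of the 1009.

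Around the limit of 1 variant list, values changed gradually. Among members in exactly 1 variant list, the strongest in WT, a region 116014 bp from BCAS1 (chromosome 20, 53827038 to 53827527), had a mean WT place of 1114 and stood at place 9353 in K243A replicate 2 and 17476 or lower down in the other 5 variant lists. TBC1D14, which encodes a regulator of autophagy, and MRPL20, a mitochondrial ribosomal protein, were next inside, with mean WT places of 1196 and 1252. Just outside, with 2 variant lists, were regions far from TBC1D4 and FAM98A, with mean WT places of 922 and 1062. The region nearest to TBC1D4 stood at places 6018 and 3911 in K243A replicates 2 and 3.

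Members came mostly from the weaker WT regions. Ranked among the 7050 regions as a percentile with 100 for the strongest, members had a median of 24.0 in WT and kept regions one of 66.0. Of the regions with a mean WT percentile up to 25, 30.3% were members, against 1.30% of those above 75, where 22 members stood. Such strong members included MME, which encodes the membrane peptidase neprilysin, LYST, which encodes a regulator of lysosome-related organelles, and FNIP2, which encodes a partner of folliculin. The 10 strongest were the regions nearest to MME, BCAS1, TBC1D14, MRPL20, LYST, FNIP2, PAM16, EPHB1, SS18L1 and SCUBE3.

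The member 755 bp outside MME (chromosome 3, 155022652 to 155023447) shows how the variants spread. Its percentile was 88.8, 90.2 and 79.95 in WT, 21.6, 9.19 and 13.6 in K243A and 0.411, 2.48 and 8.96 in G244E, with no peak in G244E replicate 1. It stayed at 80.9 to 88.7 in A264C, and ranged from 59.1 to 89.5 over Q261A, rep263A, Y253A, N278D and E260A. In rep217A it stood at 27.5 and 26.0, below every library of these 6 groups. LYST (chromosome 1, 235872053 to 235872888, inside the gene) was at 71.6 to 92.2 in WT and 90.4 to 94.0 in A264C, but at 3.66 and 6.21 in rep217A, and no Empty library listed it. FNIP2 (chromosome 4, 158805387 to 158806030, on a promoter) was at 79.8 to 87.0 in WT and 67.9 to 92.3 over the 6 groups other than rep217A and Empty, and fell to 47.0 and 51.7 in rep217A. EPHB1, whose nearest member lay 252865 bp away, went the other way, with 92.6 and 95.2 in rep217A against 71.7 to 77.9 in A264C, a difference that did not pass the test described below.

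Members lay mostly far from transcription starts. On a promoter window (250 bases before to 50 after a RefSeq start) were 85 of the 955 members on chromosomes with promoter entries, or 8.90%, against 52.5% of kept regions and 37.4% of all 7050. Chromosome 8 has no entries in that table, and its regions are left out of these shares. The median distance to the nearest start was 40167 bp for members and 0 bp for kept regions, and 44.2% of members but 20.1% of kept regions were over 50000 bp away. A gene end lay within 5000 bp of 21.2% of members and 62.6% of kept regions, and 58.7% and 79.8% lay inside a gene. The share on promoters rose step by step with the number of variant lists, from 6.69% in none and 11.6% in 1 to 13.9%, 19.9%, 31.7%, 38.1% and 52.5% in 2 to 6. The difference was also present among regions of like WT strength. Among regions with a mean WT percentile up to 25 the share was 9.94% for members and 65.3% for kept regions, and above 75 it was 4.55% and 46.8%. The median width was 774 bp for members and 1051 bp for kept regions. Each region was merged from the peaks of every list that held it, and by the rule kept regions were in more lists than members. Width thus depends on the number of lists merged, and whether single peaks were narrower at members was not tested.

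**Figure D1:**
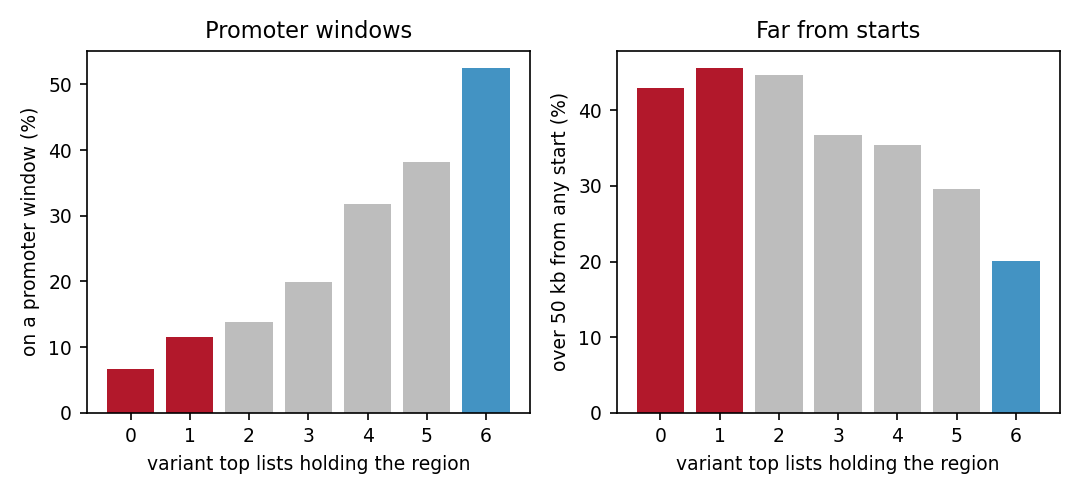
Percentage of WT regions on a promoter window (left) and over 50 kb from any transcription start (right), by the number of K243A and G244E top lists (0 to 6) that hold the region. Red bars are the members, grey the regions in 2 to 5 lists and blue the kept regions; the promoter share climbs from 6.69% to 52.5% while the distant share is highest at 0 to 2 lists.

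Where members did reach a promoter, E-boxes were frequent. Members covered 106 promoter windows of 97 genes, kept regions 2526 windows, and the table held 22132. The palindromic E-box CACGTG was in 38.7% of the member windows, 15.7% of the kept windows and 8.34% of all windows. For CATGTG, searched on both strands as were all motifs that are not palindromes, the shares were 23.6%, 5.90% and 8.93%. The M-box core TCATGTG, which contains CATGTG, was in 19 of 106 member windows (17.9%), in 1.58% of kept windows and 2.31% of all. TCACGTG, which contains CACGTG, was in 32.1%, 11.1% and 4.44%. Either E-box type was found in 60 of the 106 windows (56.6%), against 20.2% of kept windows and 16.5% of all. Motifs of other factors showed no such excess over kept windows except the AP-1 motif TGANTCA, at 8.49%, 3.25% and 6.15%. CCAAT, the NF-Y motif, was in 36.8%, 44.6% and 34.6%, and the GC box GGGCGG was less frequent in member windows (57.5%) than in kept windows (81.5%). The median GC content was 63.0% and 68.0%. These are matches of letters in a window and do not show a bound site.

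**Figure D2:**
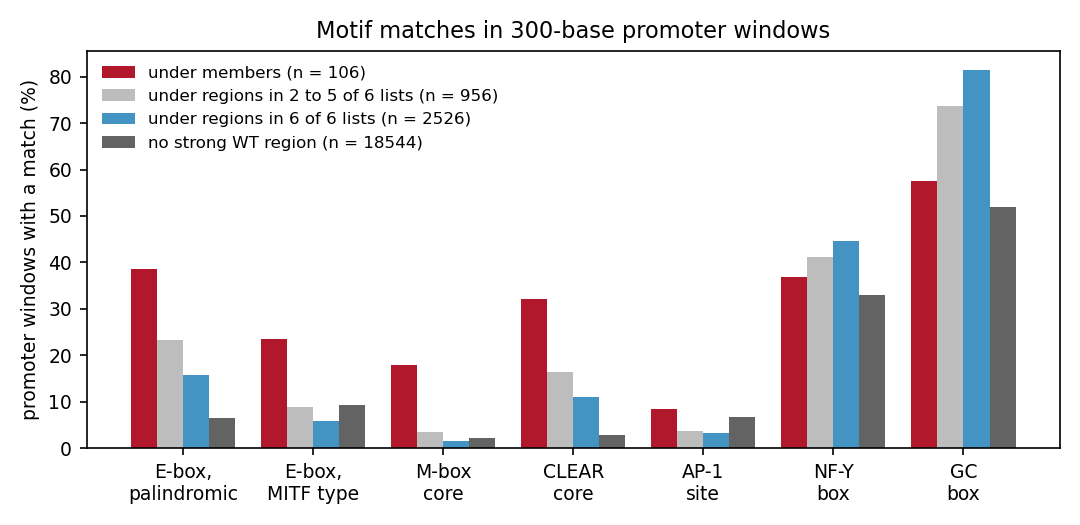
Percentage of 300-base promoter windows with at least 1 match to each motif, for windows under members (red), under regions in 2 to 5 variant lists (light grey), under kept regions (blue) and without a strong WT region (dark grey). The 4 E-box classes on the left are highest under members, while NF-Y and GC boxes are highest under kept regions.

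Members touched 679 of 19974 protein-coding genes (3.40%), counting genes with a member inside or within 5000 bp, and 27.1% of genes had any region in all 3 WT top lists. Of the genes with such a region, 12.5% had a member. Among 16 pigmentation genes, 14 had a WT region and 5 a member (35.7% of the 14): TYR, PMEL, SLC24A5, TRPM1 and MYO5A. A kept region was also present at 5 of the 16. Among 24 lysosome and autophagy genes, 22 had a WT region, 3 a member (CTSA, HEXA and LAMP2) and 12 a kept region. The 3 with a member were 13.6% of the 22, near the 12.5% over all genes. In the other lists, 1 of 10 survival and cell cycle genes with a WT region had a member (CDK2, through the PMEL region), and 1 of 7 lineage regulators (IRF4). No member lay at 3 invasive-state genes, 7 MAPK feedback genes or 13 housekeeping genes with a WT region, 10 of which had a kept region. All of these are counts, and the lists were not tested for enrichment. A gene could hold regions of several classes. MYO5A had a member inside the gene and a kept region on its promoter, and DCT and MLANA had kept regions. CDK2 had a kept region on its promoter (mean WT place 757). PMEL and CDK2 also shared a region in 5 variant lists, with a mean WT place of 1351 against 7668 for the member. TRPM1 had a further region in 2 variant lists (mean WT place 2022). MITF itself had 3 kept regions and no member. The genes with most members, at 3 each, were FMN1, GAB2, GPHN, NCKAP1 and SCIN, and 365 members had no gene within 5000 bp.

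The libraries of the other 8 groups were not used by the rule. Every region had to be strong in WT, however, and A264C, the reference below, was chosen because it lay nearest to WT. How far this choice enters the A264C shares and the falls against A264C was not tested. Members were in 91.7% ± 0.606 of the A264C top lists (SD, n = 3), 79.6% ± 1.64 in Q261A, 77.7% ± 0.420 in rep263A (n = 2), 73.8% ± 1.05 for Y253A, 70.3% ± 1.75 for N278D and 66.5% ± 3.603 for E260A. In rep217A the share was 29.0% ± 0.280 (n = 2), and in Empty 8.16% ± 0.993 (n = 3). Kept regions were in 98.4%, 92.3%, 94.7%, 90.4%, 91.3%, 90.4%, 83.6% and 55.2% of the same lists, so their share fell less in rep217A. Regions in 2 to 5 variant lists stood between, at 53.1% and 54.0% in the rep217A libraries and 23.1% in Empty. Kept regions were also stronger in WT (median percentile 66.0 against 24.0 for members), and these shares were not compared at like WT strength. For members, no value of A264C, of the 5 groups from Q261A to E260A as a set, of rep217A or of Empty overlapped those of another of these 4 sets of libraries. The same separation was present for kept regions and for all regions, so it was not particular to members. All regions were in 96.4% to 96.6% of the A264C lists and 81.9% to 88.8% over the 5 groups. They were in 64.8% and 65.0% in rep217A and 33.1% to 41.4% in Empty. At the common depth the shares of members were 72.2% in A264C, 69.7% in Q261A, 69.1% in rep263A, 63.7% for Y253A, 60.5% for N278D, 56.7% for E260A and 29.6% for rep217A. The rep217A share was 29.0% at own depth and 29.6% at the common depth, while the A264C share was 91.7% and 72.2%, so their gap was smaller there. A264C was deeper (mean depth 1.27 against 0.312 in rep217A) and was thinned more. Shares of kept regions at the common depth were not computed, and the part of depth in these shares was not tested.

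**Figure D3:**
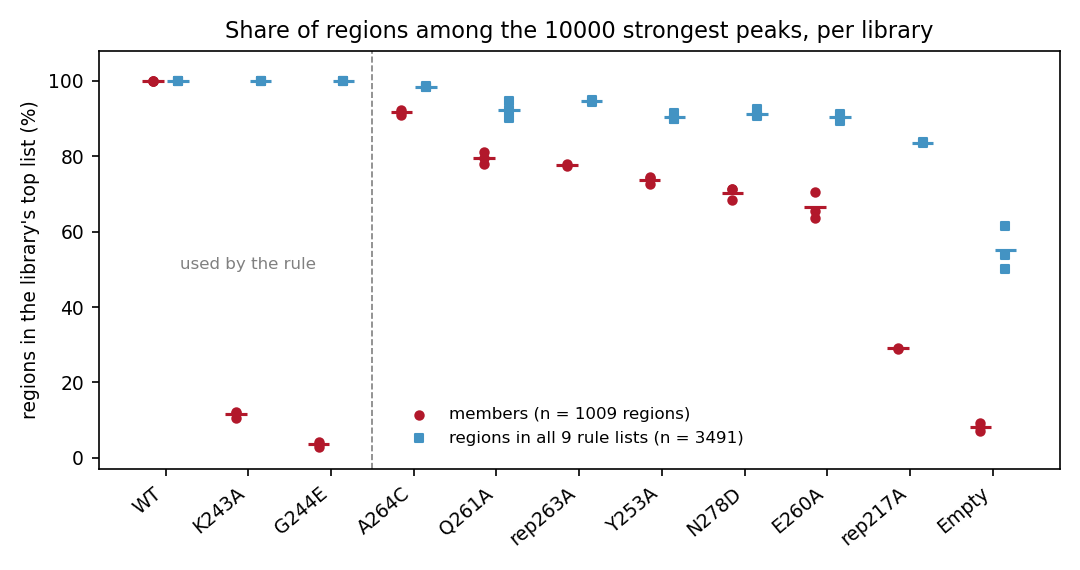
Percentage of the 1009 members (red circles) and of the 3491 kept regions (blue squares) overlapped by the 10000 strongest peaks of each library, by group, with a bar at the group mean. Groups left of the dashed line chose the regions; to its right the members run from 91.7% in A264C down to 29.0% in rep217A and 8.16% in Empty, and kept regions stay above 83% in every variant.

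Counted by region, 844 members (83.6%) were in every A264C top list, where 92.6% of all 7050 regions were. The counts were 705 in rep263A (69.9%, all regions 83.6%), 688 in Q261A (68.2%, all regions 77.8%), 646 for Y253A (64.0%, all regions 76.7%), 602 for N278D (59.7%, all regions 76.1%) and 543 for E260A (53.8%, all regions 74.0%). In rep217A they were 239 (23.7%, all regions 58.0%) and in Empty 5 (0.496%, all regions 14.7%). Conversely, 662 members (65.6%) were in no rep217A list, against 28.2% of all regions, and 806 were in no Empty list (all regions 38.6%). Members in no list numbered 21 in A264C (all regions 0.752%), 97 in Q261A (all regions 5.28%), 146 in rep263A (all regions 6.71%), 172 in Y253A (all regions 9.83%), 195 in N278D (all regions 9.56%), 217 in E260A (all regions 10.7%). Of the members, 115 (11.4%, all regions 41.6%) were in every top list of all 7 variants outside the rule. Another 246 (24.4%, all regions 12.6%) were in every list of 6 of them and in no rep217A list, and for 58 (5.75%, all regions 1.99%) none of the 7 variants had the region in every list.

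To test single regions, the percentile rank of each of the 7050 regions was compared between each group and A264C with limma over 22 libraries, with Benjamini-Hochberg adjustment over all 7050 and a threshold of 0.05. The 7 comparisons share the A264C libraries, so their results are not independent of each other. In rep217A, 262 members were lower and 184 higher than in A264C (26.0% and 18.2%), against 22.0% and 20.5% of all regions. Members had a low median percentile in A264C (28.3 ± 0.934, n = 3), which leaves them less room to fall than to rise. In the other variants, more members were higher than lower. Q261A had 111 higher and 28 lower (11% and 2.78%, all regions 3.87% and 5.13%), and Y253A 184 and 59 (18.2% and 5.85%, all regions 8.77% and 9.72%). E260A had 142 higher and 76 lower (14.1% and 7.53%, all regions 9.59% and 9.80%), N278D 147 and 102 (14.6% and 10.1%, all regions 10.8% and 12.0%) and rep263A 47 and 35 (4.66% and 3.47%, all regions 2.92% and 4.54%). Empty had 157 higher and 274 lower (15.6% and 27.2%, all regions 27.3% and 28.4%). Regions not listed in a library shared 1 tied percentile there, and a region listed in no Empty library had a mean of 12.7. For such members the Empty comparison sets the A264C rank against this tied value, which can lie above or below it. At the common depth far fewer members passed, for instance 60 higher and 63 lower in rep217A (5.95% and 6.24%, all regions 5.83% and 8.20%) and 2 lower in rep263A (0.198%, all regions 0.170%). The larger share of lower calls among members in rep217A was thus not present at that depth. In rep217A the median difference of members over 1000 bp from a start was -9.70 points at the common depth and -6.99 at own depth. For members on a promoter window it was -0.193 and 2.69. In the other variants the median rise of distant members was smaller at the common depth. It was 2.58 against 4.70 at own depth in rep263A and 6.43 against 8.30 in Q261A. The median fall of promoter members was larger there in each of these variants. Ranked by fold enrichment, the balance of calls turned to lower in 4 variants, with 20 lower and 3 higher in E260A, 9 and 1 in Y253A, 11 and 3 in N278D and 21 and 1 in rep263A. In that ranking Q261A had no call in either direction (limma; 44 lower and 45 higher at an unadjusted p below 0.05), and rep217A had 506 lower and 116 higher (50.1% and 11.5%, all regions 21.8% and 26.8%). The lower shares of all regions were 0.993% in E260A, 0.496% in Y253A, 0.723% in N278D and 0.709% in rep263A, and those of members 1.98%, 0.892%, 1.09% and 2.08%.

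**Figure D4:**
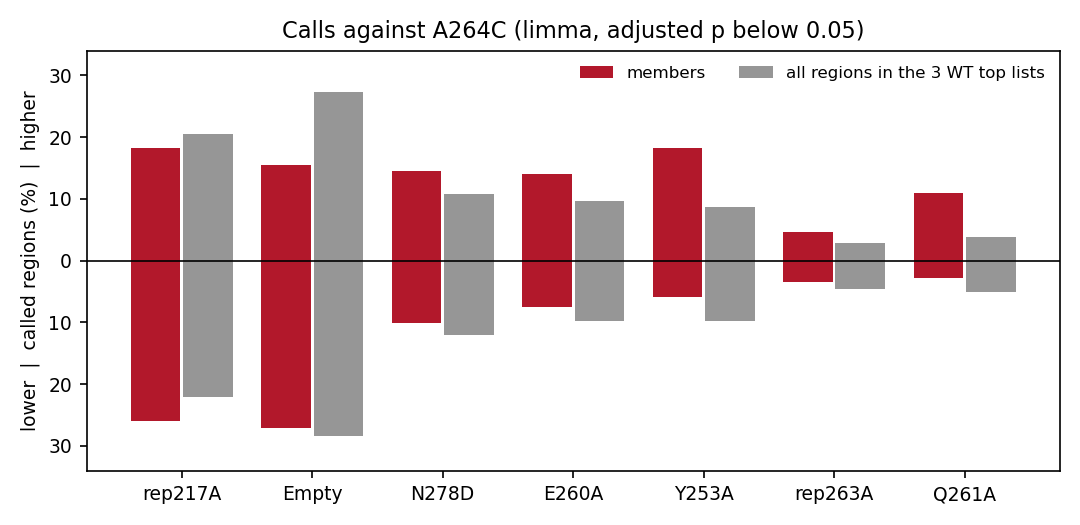
Percentage of members (red) and of all 7050 regions (grey) with a higher (above 0) or lower (below 0) percentile rank than in A264C by limma at an adjusted p below 0.05, for each group. Lower calls exceed the background share for members in rep217A (26.0% against 22.0%), and higher calls exceed it in Q261A, Y253A, E260A, N278D and rep263A.

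Promoter members and distant members had different shares in the top lists. This split by position was added after the values were seen. Of the 85 members on a promoter window, 86.7% ± 0.679 were in an A264C top list (n = 3), but 42.7% ± 6.89 in Q261A, 41.6% ± 2.45 in E260A, 40% ± 0 in rep263A (n = 2), 35.3% ± 4.24 in Y253A and 30.2% ± 4.13 in N278D. The 866 members over 1000 bp from a start were in 92.5% of A264C lists and in 83.2%, 68.9%, 81.5%, 78.1% and 74.2% of the lists of these groups. In rep217A the order turned, with 42.4% of promoter members and 28.0% of distant members. All regions on promoters had the same order against all distant regions in rep217A (73.1% and 59.8%), rep263A (84.6% and 90.7%), Q261A (83.4% and 89.0%), Y253A (79.3% and 86.4%) and N278D (78.2% and 86.6%), by smaller gaps, and the opposite order in E260A (83.2% and 81.3%). In limma, promoter members were lower than in A264C more often than higher in N278D (24 and 1), Y253A (22 and 5), E260A (19 and 6), Q261A (17 and 2) and rep263A (17 and 1). Their lower shares were 28.2%, 25.9%, 22.4%, 20% and 20%, against 17.8%, 15.3%, 11.5%, 9.06% and 7.40% of all regions on promoters. Distant members were higher more often than lower in the same groups, for instance 167 and 35 in Y253A (19.3% and 4.04%) and 99 and 11 in Q261A (11.4% and 1.27%). All distant regions had the same direction there, with 12.2% higher and 6.39% lower in Y253A and 5.33% and 2.99% in Q261A. Ranked by fold enrichment, few of the promoter calls were left, with 1 lower in N278D, 1 in Y253A, 6 in E260A, 0 in Q261A and 11 in rep263A. In that ranking the direction of distant members turned, with 14 lower and 2 higher in E260A, 10 and 3 in N278D, 7 and 1 in Y253A, 10 and 1 in rep263A and no call in Q261A. At the common depth the median difference of promoter members from A264C was -11.6 in N278D, -11.2 in Y253A, -6.97 in E260A, -9.13 in Q261A and -12.8 in rep263A (percentile points), and that of distant members was 2.62, 5.75, 1.96, 6.43 and 2.58 in the same order. There, 1 to 8 promoter members were called lower. The shares of all promoter and all distant regions called were not computed by fold enrichment or at the common depth.

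ZNF322 and SPNS1 were the clearest cases of this promoter pattern. SPNS1, which encodes a lysosomal phospholipid transporter (region on chromosome 16, 28973990 to 28975630), was at a mean percentile of 68.6 in A264C and at 3.56 in rep263A, 12.3 in Q261A, 7.66 in E260A, 7.95 in Y253A and 6.88 in N278D. These falls passed the test in limma in all 5 groups, with adjusted p-values of 0.000762 in rep263A, 0.000847 in Q261A, 0.00016 in E260A, 0.000158 in Y253A and 9.66e-05 in N278D. ZNF322, a zinc finger gene (chromosome 6, 26659193 to 26660312), went from 67.5 in A264C to 2.27 in rep263A, 11.7 in Q261A, 6.23 in E260A, 5.74 in Y253A and 2.21 in N278D (limma adjusted p of 2.17e-05 or below in E260A, Y253A and N278D, 6.71e-05 in Q261A and 0.000101 in rep263A). BACH1, which encodes a transcriptional repressor, fell by 57.7 points in rep263A and by 53.1 in E260A, and RLF, another zinc finger gene, fell by 57.7 in Q261A, 55.3 in Y253A and 61.5 in N278D. ZNF322, SPNS1, BACH1 and RLF were all in both rep217A top lists. With replicate 1 or 2 left out, rep263A kept 1 library and none of its member calls passed. At the common depth the falls of ZNF322 passed in all 5 groups and those of SPNS1 in none. Ranked by fold enrichment, the fall of ZNF322 passed in rep263A alone and that of SPNS1 in none. The falls of BACH1 passed under neither of these settings, and those of RLF passed at the common depth in N278D alone and by fold enrichment in none.

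Of the lysosomal members, CTSA was low in the same 5 variants and LAMP2 fell in rep217A as well. The CTSA promoter region, at the gene for cathepsin A (chromosome 20, 45890093 to 45892031, also covering the NEURL2 start), was at percentiles 39.7, 24.1 and 47.5 in WT and 57.4, 44.96 and 40.5 in A264C. It stood at 2.61, 1.93 and 4.03 in E260A, 7.33, 0.539 and 4.75 in Q261A, 2.95, 0.936 and 0.440 in Y253A, 0.284, 2.26 and 1.01 in N278D and 14.0 and 3.89 in rep263A. None of these libraries reached the lowest A264C value, while rep217A did, at 49.7 and 65.5. The fall against A264C was 44.8 ± 5.70 points in E260A (SE, limma adjusted p = 4e-05) and 46.4 ± 5.70 in N278D (adjusted p = 2.1e-05), and at the common depth only that in N278D passed of the 5. LAMP2, which encodes a lysosomal membrane protein (chromosome X, 120468644 to 120469506), fell in these 5 variants and in rep217A, from 65.2 ± 3.02 in A264C to 16.5 ± 3.34 in rep217A (n = 2, limma adjusted p = 0.000405) and 18.9 ± 4.66 in E260A (n = 3, limma adjusted p = 0.00104), with means of 19.6 to 24.4 in the others. At the common depth the LAMP2 falls in rep217A and E260A still passed and those in the other 4 did not. HEXA, the alpha subunit of beta-hexosaminidase (chromosome 15, 72375530 to 72376840), fell in N278D, rep263A and Empty, calls that 4 to 6 other settings did not keep, and stood at 64.5 and 71.7 in rep217A against 55.2 to 60.3 in A264C.

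The pigmentation members TRPM1 and SLC24A5 were low in rep217A and high in Y253A, N278D and E260A. TRPM1, which encodes a melanocyte cation channel (chromosome 15, 31101531 to 31103208, inside the gene and on a promoter window), was at percentiles 62.2, 74.9 and 74.2 in WT, 8.36, 15.3 and 20.7 in K243A and 10.7, 12.3 and 13.7 in G244E. It was at 79.0 to 83.9 in A264C and at 92.2 to 99.3 in all libraries of Q261A, Y253A, N278D and E260A, above every WT and A264C library, but none of these 4 differences from A264C passed the test. In rep217A it stood at 21.6 and 42.4, and the fall of 49.4 ± 7.88 points passed (SE, limma adjusted p = 4.2e-05). Ranked by fold enrichment, this difference changed sign. SLC24A5, which encodes a cation exchanger needed for melanin production (chromosome 15, 48120637 to 48121302, on its promoter), was at 30.2 to 45.5 in WT, 56.5 to 63.0 in A264C, 71.7 to 84.0 over Y253A, N278D and E260A and 15.0 and 15.8 in rep217A, a fall of 45.1 ± 8.43 (limma adjusted p = 0.000219) that did not pass at the common depth (limma adjusted p = 0.0687). TYR, the gene for the enzyme tyrosinase, which starts the making of melanin (chromosome 11, 89177623 to 89178357), varied less. It was at 44.0, 48.7 and 20.4 in WT, 43.5 to 58.7 in A264C, 12.8, 22.1 and 8.80 in K243A, 14.0 to 22.8 in G244E and 41.9 and 38.3 in rep217A, and fell by 27.1 ± 8.87 in N278D (limma adjusted p = 0.0318), where replicate 3 stood at 6.43 and the others at 31.9 and 33.5. Without any 1 of the replicate numbers 1, 2 or 3 that fall did not pass.

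PMEL, MYO5A and IRF4 held members inside the gene. PMEL, which encodes the fibril protein of melanosomes (chromosome 12, 55965129 to 55965763, near CDK2 as well), was at 27.2, 5.05 and 8.54 in WT and 33.5 to 48.9 in A264C, fell in E260A to 9.71 ± 6.20 (n = 3, limma adjusted p = 0.00256) and in rep263A to 11.6 ± 4.996 (n = 2, limma adjusted p = 0.0187), and stood at 58.3 and 62.4 in rep217A. MYO5A, the myosin that carries melanosomes, had a member near the bottom of the WT order (0.738 to 6.53), and its rises in rep217A and N278D did not pass at the common depth. IRF4, which encodes a transcription factor that acts with MITF in pigmentation (chromosome 6, 395818 to 396587), was at 40.7, 80.4 and 78.3 in WT, 6.72 to 21.7 in K243A and 9.56 to 19.3 in G244E. It was higher in rep217A (92.7 and 93.1) than in A264C (49.5, 61.6 and 65.4), a rise of 34.1 ± 9.36 points (SE, limma adjusted p = 0.00577) that did not pass at the common depth or with replicate 1 or 2 left out.

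**Figure D5:**
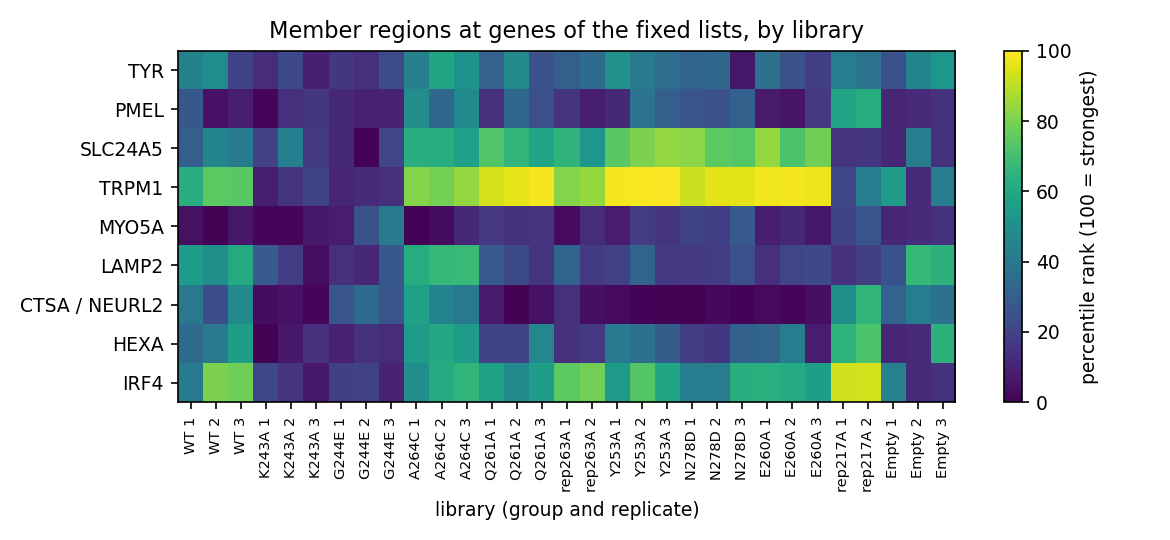
Percentile rank (colour, 0 to 100 with 100 the strongest of 7050 regions) of the 9 members at genes of the fixed lists, in each of 31 libraries. TRPM1 and SLC24A5 are brightest in Y253A, N278D and E260A and dark in rep217A, CTSA is dark from Q261A to E260A and lighter in rep217A, and IRF4 is brightest in rep217A.

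Beyond the list genes, the largest falls in rep217A were at LYST, POMGNT1, a glycosyltransferase gene, and a region 14827 bp from IGSF3. LYST dropped by 87.5 ± 6.87 points (SE, limma adjusted p = 5.89e-09), and its call held under all 10 other settings. MME dropped by 58.1 ± 7.59 (limma adjusted p = 4.48e-06), SCUBE3 by 65.8 ± 6.28 (limma adjusted p = 8.3e-08) and FNIP2 by 36.3 ± 5.76 (limma adjusted p = 3.96e-05), also under all 10. The largest rises were inside PTP4A2, which encodes a phosphatase, from 2.68 in A264C to 94.3, CHST11, a chondroitin sulfotransferase gene, from 2.18 to 89.7, and ALK, a receptor tyrosine kinase gene, from 10.3 to 97.6. In Y253A and N278D a region inside TPRN rose from 19.8 to 92.8 and 95.3, and both rises passed under all 10 other settings as well. In E260A a region inside SNTG1, a syntrophin gene, rose from 16.8 to 95.7, and one inside WDR1, which encodes an actin regulator, from 23.6 to 84.2. Neither rise passed by fold enrichment, and that at WDR1 did not pass at the common depth. Of the members in both rep217A lists 11.9% lay on promoters, of those in 1 list 17.5% and of those in neither 6.40%, with median distances to a start of 38868, 34095 and 41413 bp. Members in both lists were listed in 51.9% of Empty libraries and those in neither in 34.04%.

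Members were seldom among the strongest peaks of the control, although 720 of the 1009 (71.4%) were listed in at least 1 Empty library, as were 91.9% of all 7050 regions. In no Empty library were 289 (28.6%, all regions 8.10%), and in all 3 were 117 (11.6%, all regions 54.2%). Per library, 40.2% ± 6.06 of members and 74.7% ± 3.98 of all regions were listed (n = 3), and 8.16% and 36.9% were in the top list. The Empty libraries were at most 0.03 in depth, so a region not listed there may have been undetectable. Their top lists end in ties, and 5068 to 8305 peaks stood above the tie. With only these, 6.28% ± 2.09 of members were in an Empty top list. Promoter members were listed in 67.1% ± 10.8 of Empty libraries and distant members in 37.6% ± 5.35, against 90.04% and 65.3% of all regions of these kinds.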

How the data were processed

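CUT&Tag peak lists of 33 samples in 11 groups were used. Reads were handled with bcl2fastq 2.20.0.422 and Bowtie2 2.3.4.3 on hg38 and peaks were called with MACS2, per the submitters' processing notes, and each deposited list covers 1 library. No label or header says whether a control library was used. The values deposited by the authors were the fold enrichment of each summit, its −log10 p and −log10 q, and a whole-number score, which was not used. Relative depth and pileup were recovered here from these columns.

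Each region took its best overlapping peak (by −log10 q, overlap of at least 1 bp), converted to a percentile among the 7050 regions. Regions without a peak in a library were placed last and shared the average of their tied ranks. The 22 libraries of the 8 groups outside the rule entered 1 limma fit (limma 3.58.1, R 4.3.3; Python 3.11.15, pandas 2.3.3, numpy 2.4.6, scipy 1.17.1), with Benjamini-Hochberg adjustment and a threshold of 0.05. In simulated data for rep217A against A264C over 7050 regions, falls of 10, 20 and 40 points were recovered in 4.48%, 11.9% and 71.2% of cases. The falls were given only to regions above a set A264C percentile. Members had a median of 28.3 in A264C, so these rates do not describe detection among members as a whole. Genes and promoters came from RefSeq tables of GRCh38.p14.

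The members, the gene lists and the reference group A264C, which lay nearest to WT, were chosen with earlier results of these data known. The regions named were taken from the 10 members strongest in WT, the 3 largest falls and rises in each comparison, those next to the limit of the rule (1 of which is not reported here), and the members at list genes. Thinned libraries used 5 random draws.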

Additional observations from a re-analysis of the deposited data

How the results depend on the processing

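The number of members was 649 with top lists of 5000 peaks (169 of the 1009 overlapped), 1593 with 20000 (201 overlapped), 2043 ranked by fold enrichment (367 overlapped), 551 with no variant list allowed and 485 at the common depth, and 1499 to 1712 without 1 replicate. The counts of calls in this section are of members alone. Without the share of all regions beside them, they do not set members apart from other regions. Members called against A264C at the common depth numbered 123 in rep217A, 2 in rep263A, 23 in E260A, 5 in Q261A, 23 in Y253A and 32 in N278D. Ranked by fold enrichment they were 22 in rep263A, 23 in E260A, 0 in Q261A (44 lower and 45 higher at an unadjusted p below 0.05 in limma), 10 in Y253A, 14 in N278D and 720 in Empty. Without the Empty libraries, an alternative chosen after seeing the data, they were 192 in rep263A and 267 in Q261A. Empty thinned to its depth limit gave 15. Without 1 replicate the range was 245 to 422 in rep217A, 0 to 65 in rep263A, 64 to 131 in E260A, 8 to 54 in Q261A, 76 to 149 in Y253A, 91 to 173 in N278D and 292 to 381 in Empty. The cause was not tested. Signs reversed under fold enrichment for TRPM1 in rep217A (10.5 points) and Empty (33.4), MYO5A in N278D (-3.24), and in Empty for IGSF3 (0.58), MRPL20 (23.3), SS18L1 (9.51), PMEL (6.40) and IRF4 (19.1). When thinned, they reversed for HEXA in N278D (1.41) and TBC1D14 in Empty (10.97). Most calls at the named regions did not hold under these settings. By fold enrichment 30 still passed with the same sign, 56 did not pass and 8 changed sign. At the common depth, without Empty, 27 still passed, 46 did not and 1 changed sign. With the replicate number as a block, 443, 84, 214, 142, 235, 251 and 431 members were called in rep217A, rep263A, E260A, Q261A, Y253A, N278D and Empty. The numbers share only a label, since 7 of 22 libraries correlated best with their own number. Requiring a call in at least 11 of the 22 libraries removed no region. The shallow K243A, G244E and Empty libraries limit what can be detected there.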
